A study of Caenorhabditis elegans with 2 samples.

Results

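The DREAM complex and E2F genes of the nematode Caenorhabditis elegans were examined as places where the homeobox protein CEH-82 was bound. They are 10 named genes of the 19973 protein-coding genes annotated on the 6 nuclear chromosomes: lin-35, efl-1, efl-2, dpl-1, lin-9, lin-37, lin-52, lin-53, lin-54 and lin-15B. They were chosen by name, with earlier results of these data known, so the counts below do not come from a blind choice. For each gene every peak from 2000 bp upstream to the 3' end was collected. Binding was measured by ChIP-seq, the sequencing of DNA immunoprecipitated with a chromatin protein, in whole animals of the first larval stage (L1), of mixed sex and unknown age. All samples came from strain OP212, which carries unc-119(ed3) III and ddEx58, and the immunoprecipitated protein was CEH-82 fused to enhanced green fluorescent protein (eGFP). The labels speak of an insertion, although ddEx58 has the form of name used for extrachromosomal arrays, and in which cells the fusion was present is not given in the sources used here. There was 1 group of 2 biological replicates and no second condition, so every value below is a description, set beside the same value over all protein-coding genes or all peaks.

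In worms the DREAM complex, also called DRM, joins the retinoblastoma-like pocket protein LIN-35 to the E2F and DP transcription factors EFL-1 and DPL-1 and to a core of LIN-9, LIN-37, LIN-52, LIN-53 and LIN-54. It is known mainly as a repressor of cell cycle genes and, in somatic cells, of germline genes. Its genes are class B synthetic multivulva (synMuv) genes, which restrain vulval cell fate together with the redundant class A genes. LIN-15B, a THAP-domain protein, is a class B protein outside the complex, and EFL-2 is a further E2F family member.

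The authors' optimal list, cut by them at a level of the irreproducible discovery rate (IDR), held 3913 peaks, and the list called on pooled replicates held 16974. The lists of replicates 1 and 2 held 24014 and 30000 peaks. Signal is the value that the authors' peak caller gave each peak, and it was read only within a list. In the optimal list it ran from 27.6 to 595, with a median of 55.7. Peaks of the replicates were called against 1 shared control, and read depth is unknown, since no read counts are in the lists. In whole larvae, binding in more cells and stronger binding per cell cannot be told apart.

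Peaks of the optimal list lay at 9 of the 10 genes, all but efl-2, against 22.5% of all protein-coding genes under the same rule. At 7 of the 10 the summit lay in a promoter window, from 1000 bp upstream to 200 bp downstream of an annotated 5' end, against 16.0% of all protein-coding genes. The 7 were lin-35, efl-1, dpl-1, lin-9, lin-53, lin-54 and lin-15B. There were 10 such peaks in all, because lin-9 had 2, and none had its summit within the body of the gene itself. The genes are somewhat longer than usual, with a median of 3276 bp against 2027 bp for all protein-coding genes, and no value was adjusted for length. The strongest peaks of the 9 genes had a median signal of 107 and a median percentile of 83.2, where the percentile is the share of optimal peaks that rank lower. For all 4486 protein-coding genes with an optimal peak at the locus these medians were 63.7 and 58.4. Strength was spread widely, and 4 of the 9 genes stood in the strongest 10% of the list, against 14.4% of all genes with a peak at the locus.

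**Figure D1:**
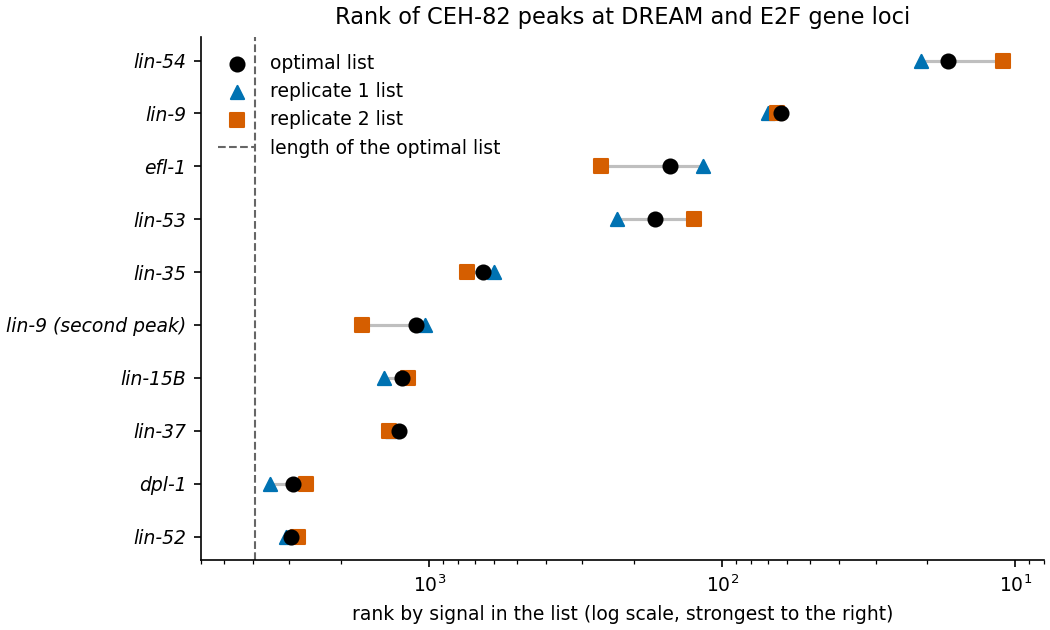
Rank of each optimal peak at the DREAM and E2F genes (log scale, strongest to the right) in the optimal list (circles), in the list of replicate 1 (triangles) and in that of replicate 2 (squares), with the length of the optimal list, 3913, as a dashed line. All 10 peaks rank within 3913 in all 3 lists, from rank 17 at lin-54 to rank 2968 at lin-52 in the optimal list.

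The strongest peak belonged to lin-54, which encodes the DNA-binding subunit of the core (WBGene00003037). It lay on chromosome IV at 13240587 to 13240756, between protein-coding genes, and had a signal of 386 and rank 17 in the optimal list. In replicate 1 the peak had a signal of 225 and rank 21, and in replicate 2 a signal of 161 and rank 11, each on the scale of its own list. Its summit was 363, 364 and 370 bp upstream of the 3 annotated 5' ends of lin-54, but only 30 bp upstream of that of rpl-12, a ribosomal protein gene on the opposite strand. The peak therefore stands nearer to rpl-12, and which of the genes it serves was not tested. The next in strength was lin-9, which encodes a conserved subunit of the core (WBGene00002998). Its peak on chromosome III at 8904215 to 8904355 had a signal of 259 and rank 63 in the optimal list, with signals of 155 and 100.6 and ranks 70 and 65 in replicates 1 and 2. It lay 153 bp upstream of the 5' end, was in no other protein-coding gene's window, and had its summit at the same base in both replicates.

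A further strong peak lay at efl-1, the E2F gene whose product pairs with DPL-1 (WBGene00001161), on chromosome V at 16965788 to 16965903. Its signal was 196 and its rank 151 in the optimal list, with signals of 130 and 64.8 and ranks 116 and 260 in replicates 1 and 2. The summit was 168 bp upstream of efl-1 and 971 bp upstream of fbxa-90, an F-box gene on the opposite strand. At lin-15B (WBGene00023497) the peak lay on X at 15725063 to 15725322, with a signal of 77.3 and rank 1233, and ranks 1429 and 1177 in replicates 1 and 2. It was 930 bp upstream of the nearest of the 2 annotated 5' ends, near the far edge of the promoter window.

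The DNA under 5 of the peaks is shown because it holds sequences like those that DREAM itself binds, of 2 kinds at lin-54, lin-9, efl-1 and lin-15B and of 1 kind, in 4 copies, at lin-37. E2F and DP proteins bind GC-rich octamers, searched here as TTTCCCGC, TTTCGCGC, TTTGCCGC and TTTGGCGC, and LIN-54 binds the cell cycle homology region (CHR), searched here as TTTGAA and TTCGAA, on both strands. The 201 bases centred on each summit are from the RefSeq genome of WBcel235, which is ce11, 5′ to 3′ on the plus strand. Capitals mark E2F-like and CHR-like matches and TGGAGCGC, an octamer found in 3 of these windows. The windows are chrIV:13240581-13240781 for lin-54, chrIII:8904184-8904384 for lin-9, chrV:16965743-16965943 for efl-1, chrX:15725093-15725293 for lin-15B and chrIII:7074070-7074270 for lin-37.
lin-54: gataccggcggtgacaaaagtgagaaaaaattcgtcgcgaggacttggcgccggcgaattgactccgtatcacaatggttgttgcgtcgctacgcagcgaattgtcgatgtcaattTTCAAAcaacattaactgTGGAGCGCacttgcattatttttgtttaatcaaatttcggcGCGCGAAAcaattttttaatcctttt
lin-9: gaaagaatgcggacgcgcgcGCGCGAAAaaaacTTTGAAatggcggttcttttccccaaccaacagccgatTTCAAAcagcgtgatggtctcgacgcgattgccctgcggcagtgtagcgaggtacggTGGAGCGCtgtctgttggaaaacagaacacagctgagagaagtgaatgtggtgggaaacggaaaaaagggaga
efl-1: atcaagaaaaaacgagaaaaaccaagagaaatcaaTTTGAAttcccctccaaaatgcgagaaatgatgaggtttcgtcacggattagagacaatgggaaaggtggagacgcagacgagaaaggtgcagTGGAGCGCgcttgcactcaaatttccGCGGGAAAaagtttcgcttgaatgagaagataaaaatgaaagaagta
lin-15B: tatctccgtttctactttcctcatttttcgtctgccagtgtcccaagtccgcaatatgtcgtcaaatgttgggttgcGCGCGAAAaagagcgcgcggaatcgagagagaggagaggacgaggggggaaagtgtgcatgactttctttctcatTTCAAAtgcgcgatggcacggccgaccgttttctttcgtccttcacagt
lin-37: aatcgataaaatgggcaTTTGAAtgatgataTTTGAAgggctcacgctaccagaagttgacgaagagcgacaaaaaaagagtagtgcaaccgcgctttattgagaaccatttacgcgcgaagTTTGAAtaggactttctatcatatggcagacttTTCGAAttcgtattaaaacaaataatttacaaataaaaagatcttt

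An E2F-like octamer lay within 100 bp of the summit in 4 of the 10 peaks, those at lin-54, efl-1, lin-15B and the stronger one at lin-9, against 7.05% of all optimal peaks and 11% of the 200 strongest. Within 50 bp of the summit the count was 1 of 10, at lin-15B, against 4.37% of all optimal peaks. The match on the plus strand was GCGCGAAA in 3 of them and GCGGGAAA at efl-1. CHR-like hexamers lay in 8 of the 10 windows, against 38.4% of all optimal peaks and 48% of the 200 strongest, and within 50 bp in 5, against 19.4%. The same 4 windows with an E2F-like match also held a CHR-like match, and both kinds together occurred in 3.73% of all optimal peaks and in 8.5% of the 200 strongest, to which 3 of the 4 belong. At lin-9 the nearest such pair was 5 bp apart, and at lin-54, lin-15B and efl-1 it was 53, 67 and 113 bp apart. The window at lin-37 held 4 CHR-like matches and no E2F-like one. The share of optimal peaks with as many CHR-like matches is not given here. This window also had the lowest GC content of the 10, 35.3%. GAGAGA, a repeat that is common under CEH-82 peaks, was in 4 of the 10 windows, against 47.5% of all and 32% of the 200 strongest. Within 50 bp it was in 1, against 32.3% of all and 19.5% of the 200 strongest. The homeodomain core TAATTA was in none, against 3.91% and 5%. CACGTG was in 1, at lin-52, against 5.37% and 4.5%.

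**Figure D2:**
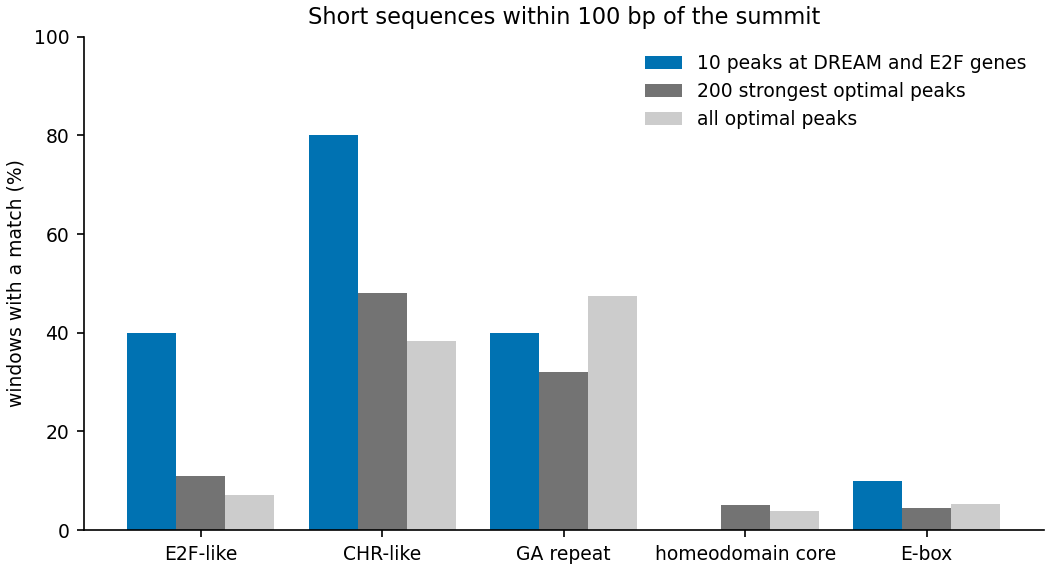
Share of 201 bp windows around summits that hold a match (%), for the 10 peaks at the DREAM and E2F genes (blue), the 200 strongest optimal peaks (dark grey) and all 3913 optimal peaks (light grey), with GAGAGA as the GA repeat, TAATTA as the homeodomain core and CACGTG as the E-box. E2F-like and CHR-like matches are in 4 and 8 of the 10 windows, against 7.05% and 38.4% of all optimal peaks. The homeodomain core is in none, against 3.91%.

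Such matches describe letters and not sites of binding. In promoter sequences from 250 bp upstream to 50 bp downstream of the outermost 5' end, E2F-like octamers occurred at 3 of the 10 genes, efl-1, lin-9 and lin-53, against 4.69% of all protein-coding genes. CHR-like hexamers occurred at 7 of the 10, against 68.9%, so their share there was close to that of all promoters. The GC content of the 10 summit windows ran from 35.3% at lin-37 and 36.8% at lin-35 to 50.7% at lin-15B and 52.7% at the stronger lin-9 peak. The median over all optimal peaks was 44.3%, with 7 of the 10 below it, and the part of GC content in the matches was not tested.

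Of the remaining members, lin-53 and lin-35 are on chromosome I. The gene lin-53 (WBGene00003036) encodes a histone-binding protein of the RBBP family that also serves other chromatin complexes. Its peak at 9619946 to 9620027 had a signal of 188 and rank 169, with signals of 103 and 84.9 and ranks 228 and 125 in replicates 1 and 2. It lay 252 bp upstream of lin-53 and 215 bp upstream of nra-2 on the opposite strand. The gene lin-35 (WBGene00003020) encodes the pocket protein, and its peak at 5807411 to 5807670 had a signal of 107 and rank 657, with signals of 68.8 and 41.3 and ranks 603 and 741. That summit was 168 bp upstream of lin-35 and 250 bp upstream of vps-51, an endosomal tethering gene, on the opposite strand.

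The E2F dimerization partner gene dpl-1 (WBGene00001061) had one of the weakest peaks among these genes. Its peak on chromosome II at 9169506 to 9169765 had a signal of 38.0 and rank 2909, with signals of 19.4 and 17.1 and ranks 3483 and 2626 in replicates 1 and 2. The summit was 274 bp upstream of dpl-1 and within an intron of T23G7.2, a gene on the other strand within which dpl-1 lies whole. The E2F genes themselves stood far apart. While efl-1 ranked 151 in the optimal list, efl-2 (WBGene00001162) had no peak in that list at all. The strongest pooled peak at efl-2, on chromosome II at 13405632 to 13405891 and 378 bp upstream, had a signal of 12.0, rank 10533 of 16974 and a −log10 q-value of 0.241. Replicate 1 had a peak near it, 411 bp upstream, with rank 9773, whereas the strongest peak of replicate 2 at the gene was 96 bp downstream of the 5' end, with rank 12930. All 10 optimal peaks had the ceiling −log10 q-value of 3.82, as did 83.6% of the optimal list.

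The peaks of lin-37 (WBGene00003022) and lin-52 (WBGene00003035), which encode further core subunits, were not in the genes' own promoter windows but at the gene before them. The lin-37 peak on chromosome III at 7074040 to 7074299 had a signal of 76.2 and rank 1267, with ranks 1340 and 1374 in replicates 1 and 2. It lay 1618 bp upstream of lin-37 and 319 bp upstream of ZK418.5, which ends 60 bp before lin-37 on the same strand. The lin-52 peak on the same chromosome at 9826094 to 9826353 had a signal of 37.2 and rank 2968, with ranks 3086 and 2804. It lay 1474 bp upstream of the nearest of 2 lin-52 5' ends and 792 bp upstream of ZK632.9, which ends 126 bp before lin-52 on the same strand. Closely spaced genes on 1 strand are often transcribed together as operons in this species, but operons were not annotated in the sources used here, and whether these peaks act on lin-37 or lin-52 was not tested. A like spacing held after lin-53, where rba-1, a closely related RBBP gene, begins 88 bp beyond its 3' end, with the lin-53 summit 1905 bp upstream of it. The gene lin-15A, which follows lin-15B on its strand and overlaps it by 58 bp, had no optimal peak. In the pooled list a peak near its 5' end had a signal of 12.2, and its summit lay in the annotated 3' UTR of lin-15B. At the 10 loci the pooled list added 7 peaks to the optimal ones, 3 at lin-54, 2 at lin-35 and 1 each at efl-2 and lin-15B. Their signals were at most 20.4, under the lowest optimal signal of 27.6, and the strongest of them had its summit at -788 bp from lin-54.

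**Figure D3:**
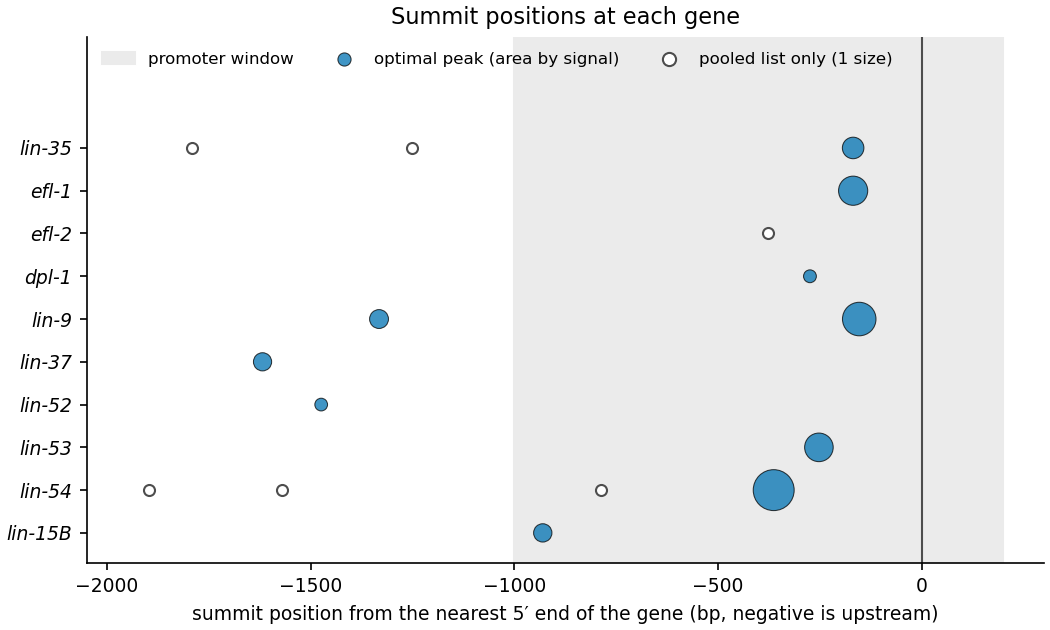
Position of each summit relative to the nearest annotated 5' end of its gene (bp, negative is upstream), with optimal peaks as filled circles of area by signal, peaks of the pooled list alone as open circles of 1 size and the promoter window shaded. The summit at +5629 bp of lin-15B is outside the axis. Of the 7 promoter summits, 6 lie 153 to 363 bp upstream and that of lin-15B lies 930 bp upstream.

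The median position of the 7 was 252 bp upstream of the 5' end, against 227 bp upstream over the strongest promoter peaks of all 3201 bound genes. Many worm transcripts are trans-spliced, so an annotated 5' end can lie downstream of the true start of transcription, and distances carry that limit. The second lin-9 peak, on chromosome III at 8905333 to 8905592 with a signal of 82.3 and rank 1110, was 1332 bp upstream of lin-9 but 152 bp upstream of unc-32, a divergent gene for a vacuolar ATPase subunit. For 6 of the 9 genes the strongest peak had its summit in the window of another protein-coding gene, against 52.2% of all genes with a peak at the locus. Only lin-9, dpl-1 and lin-15B had a strongest peak in no other gene's window. With windows of 2000 bp the count was 8, lin-9 and dpl-1 among them, and with windows of 500 bp it was 4. Shares over all genes were not computed for these windows. When each summit went to its nearest 5' end alone, 5 members kept a peak, against 16.3% of all protein-coding genes, since lin-54's went to rpl-12 and lin-53's to nra-2.

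All 10 peaks overlapped a peak among the 3913 strongest of each replicate, against 80.4% of the optimal list, which was itself selected from both replicates. Percentiles within these top lists averaged 99.6 ± 0.181 at lin-54, 98.3 ± 0.0904 at lin-9, 95.5 ± 1.86 at lin-53 and 95.2 ± 2.60 at efl-1 (SD, n = 2). They averaged 82.8 ± 2.49 at lin-35, 66.7 ± 4.55 at lin-15B, 65.3 ± 0.614 at lin-37, 24.7 ± 5.10 at lin-52 and 21.9 ± 15.5 at dpl-1. For the second lin-9 peak the average was 65.2 ± 11.9. A percentile near 100 has little room to vary, so these SDs do not compare the agreement of strong and weak peaks. Ranks in replicates 1 and 2 were 21 and 11 at lin-54, and 3483 and 2626 at dpl-1. The order lin-54, then lin-9, then efl-1 and lin-53, then lin-35 was the same in both replicates, apart from the places of efl-1 and lin-53. Replicate 1 put efl-1 above lin-53 and replicate 2 did the reverse. The same was true of lin-37 over lin-15B, of lin-52 over dpl-1 and of the second lin-9 peak over lin-37 and lin-15B. These pairs thus had no fixed order over the replicates. Summits of the replicates were 0 to 62 bp apart, with a median of 13.5 bp, against 16.0 bp over the optimal peaks found in both top lists. Of the 10 peaks 4 were narrower than 260 bp, at lin-53 (82 bp), efl-1 (116 bp), lin-9 (141 bp) and lin-54 (170 bp), against 7.69% of optimal peaks. These 4 were among the 200 strongest, of which 91.0% were that narrow.

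By rank in the optimal list and both replicate lists, the genes most like lin-54 were C53H9.4 and egl-30, which share a peak with ranks 16, 17 and 13, and Y41D4B.4, which shares a peak with rps-28 at ranks 21, 19 and 21. Those most like lin-9 were Y57G11C.3 and mrps-7, which share a peak with ranks 68, 77 and 66, and cct-1, whose peak with ranks 61, 66 and 55 is also that of mig-5. The measure was the sum of absolute log2 rank ratios over the 3 lists, and it was 0.633 and 1.38 for lin-54 and 0.270 and 0.372 for lin-9.

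Among 71 further genes of the pathway, in 8 groups, 32 had an optimal summit in a promoter window, against the 16.0% of all protein-coding genes. These groups too were listed with earlier results of these data known. Genes of DNA replication and S phase had 9 of 13, led by pcn-1, the sliding clamp PCNA (signal 165), cdc-6, which loads the replicative helicase (153), and the helicase genes mcm-7 (86.9) and mcm-2 (75.7). The summits at cdc-6 and mcm-7 were also in the windows of acin-1 and hpo-18. The summits at pcn-1, cdc-6 and mcm-2 lay 249, 287 and 247 bp upstream. Of the weaker peaks, orc-1 ranked 4277 in replicate 1 and mcm-5 ranked 6976 in replicate 2, both below the 3913 strongest. The orc-1 summit was also in the window of dhs-11. Class C synMuv genes, which encode subunits of a Tip60-like histone acetyltransferase complex, had 4 of 4, epc-1 (195), trr-1 (85.6), mys-1 (41.1) and ssl-1 (33.6). The summits at epc-1 and trr-1 were also in the windows of Y111B2A.12 and C47D12.2. The peak at mys-1 ranked 4349 in replicate 2 and that at ssl-1 ranked 4612 in replicate 1, below the 3913 strongest. When each summit went to its nearest 5' end alone, 2 of these 4 were bound, against 16.3% of all protein-coding genes, and in the 1956 strongest optimal peaks 2 were, against 9.41%. Of 12 other class B genes 6 were bound, led by lin-36 (149), the SUMO conjugating enzyme gene ubc-9 (97.2), mep-1 (90.2) and the SUMO gene smo-1 (82.1). The peak at hda-1, also among the 6, ranked 4741 in replicate 2. Its summit lay 993 bp upstream and was also in the window of ril-1. Among the class A genes lin-38 alone of 4 had such a peak (101.5), in a window shared with mrpl-37. With windows of 2000 bp 2 of these 4 were bound, against 20.3% of all protein-coding genes, and with the nearest 5' end alone 2 were, against 16.3%.

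The main counts of the remaining groups stand beside the same 16.0% of all protein-coding genes. Of 5 RBBP and NuRD genes 3 were bound, lin-40 (73.0), dcp-66 (37.0) and egl-27 (31.5), of which lin-40 alone was among the 1956 strongest optimal peaks. With windows of 500 bp 1 of the 5 was bound, against 13.1% of all protein-coding genes. Mitotic cyclins and kinases had 4 of 10, cyb-1 (101.6, shared with orc-5), cdk-1 (53.1, shared with iff-1), the Aurora B gene air-2 (47.4, shared with B0207.6) and plk-1 (37.2). Of these, cyb-1 alone was among the 1956 strongest optimal peaks. The peak at plk-1 ranked 4038 in replicate 1. Regulators of G1 and S phase entry had 4 of 11, the F-box gene lin-23 (171), cye-1, which encodes cyclin E (107.6), cdk-4 (57.1) and skpt-1 (43.3). The summits at cye-1 and cdk-4 were also in the windows of pqn-21 and F18H3.1. With windows of 500 bp 2 of these 11 were bound, against 13.1% of all protein-coding genes. The summits at lin-23 and cye-1, the strongest of the 4, lay 944 and 559 bp upstream and so outside such windows. Of 12 germline genes 1 was bound (8.33%), against 16.0% of all protein-coding genes, and whether these shares differ was not tested. It was the meiotic gene spo-11 (50.2), whose summit is also in the window of swsn-4. In the 1956 strongest optimal peaks 0 of these 12 were bound, against 9.41% of all protein-coding genes. The P granule genes pgl-1, pgl-3 and glh-1 and the cyclin D gene cyd-1 had no optimal peak, and they are named here after their values were seen.

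**Figure D4:**
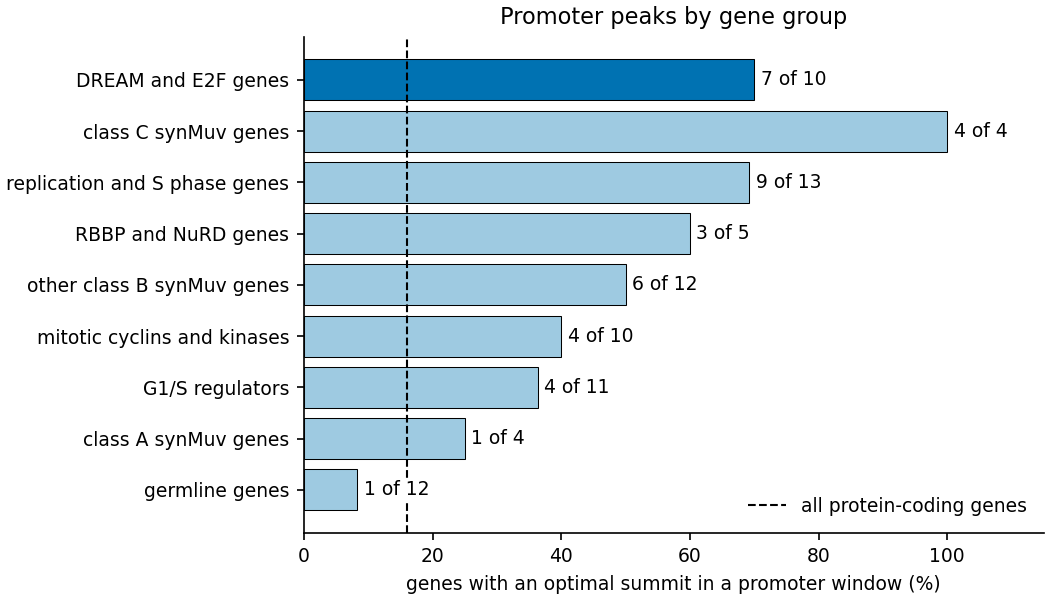
Share of genes with an optimal summit in a promoter window (%) for the DREAM and E2F genes (dark bar) and the 8 other groups (light bars), with the numbers of genes beside each bar and the 16.0% of all protein-coding genes as a dashed line. The share is 7 of 10 for the DREAM and E2F genes and 1 of 12 for germline genes.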

How the data were processed

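ChIP-seq peak lists on ce11, the assembly WBcel235, were used for 2 biological replicates that formed 1 group. Per the deposited read-me files, each replicate, the pooled replicates and the optimal list were called or derived from alignments with 1 control. No source used here names the aligner, the peak caller or the IDR level. Per peak, the deposited lists give a signal and a −log10 q-value. Depth is unknown. All peaks lay within the chromosome lengths of the reference. One summit offset lay past its peak's end and was held inside it. Deposited ce10 lists were not used here.

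Peaks were ranked by signal, then q-value. Genes came from Ensembl release 115, and sequence from RefSeq. Overlap meant at least 1 bp. Top lists were each replicate's 3913 strongest peaks. Assignment was tested on simulated data. No significance test was made, since there is 1 group. The rule for named genes took all 10 members, genes sharing their peaks, up to 4 bound genes of each pathway group, and the 3 genes nearest in rank to each of the 2 strongest members. Members, lists and sequences were chosen with earlier results of these data known. Alternatives were other lists, single replicates, windows of 500, 2000 and 5000 bp, midpoints, 50% reciprocal overlap, nearest 5' ends and 50 bp sequence windows. The octamer TGGAGCGC, the E2F-like and CHR-like pair and the comparison with the 200 strongest peaks were added after the data were seen. Python 3.11.15, numpy 2.4.6 and pandas 2.3.3 were used.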

Additional observations from a re-analysis of the deposited data

How the results depend on the processing

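The number of members with an optimal peak at the locus, 9, ranged from 7 to 10 over 7 alternatives, and the number with a promoter summit, 7, from 5 to 9 over 8. The share of all protein-coding genes with a peak at the locus was computed only for the main setting, 22.5%. The range from 7 to 10 therefore has no background beside it. Promoter summits were at 6 members in the 1956 strongest optimal peaks, 9 with windows of 2000 bp and 8 in the pooled list, against 9.41%, 20.3% and 33.7% of all protein-coding genes. Each replicate's top list alone gave 9 and 7. In the top lists of replicates 1 and 2, 16.0% and 15.7% of all protein-coding genes had a promoter summit. In the 1956 strongest optimal peaks dpl-1 and lin-52 were lost, and 19 of the 71 further pathway genes were bound, where the optimal list gave 32 and the share of all protein-coding genes fell to 9.41%, against 16.0%. The strongest peaks of the 9 members were also ranked only among optimal peaks with a summit in any protein-coding gene's promoter window. Their median percentile was then 78.8, against 83.2. Within 50 bp of summits E2F-like octamers were in 1 of the 10 windows, CHR-like hexamers in 5 and GAGAGA in 1. In promoter sequences TAATTA was in 3 of 10 and CACGTG in 0, against 15.5% and 5.82% of all promoters, and the cause was not tested. Leaving out each replicate in turn gave median percentiles of 81.1 to 84.6 and 31 bound pathway genes both times. The shares of all protein-coding genes were then 16.0% with replicate 1 alone and 15.7% with replicate 2 alone. No paired analysis was possible because there is 1 group. The small number of genes and the unknown depth limit what these counts can show.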

Other observations

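The 3 windows at lin-54, efl-1 and lin-9 held a further octamer in common, TGGAGCGC, which was read off these sequences after they were seen. It began 34 bp after the summit at lin-54 and 28 bp after it at both efl-1 and lin-9, each time on the plus strand. The gene lin-54 is itself on the plus strand, whereas efl-1 and lin-9 are on the minus strand. None of the other 7 windows held it. Within 100 bp of the summit it occurred at 4.37% of the 3913 optimal peaks and 12.0% of the 200 strongest, against 0.681% of the 13061 weaker pooled peaks. Per the deposited read-me files the pooled list also takes in background, so these are not all binding sites. In promoter sequences of all protein-coding genes it occurred in 1.30%. Those sequences ran from 250 bp upstream to 50 bp downstream and were longer than the 201 bp summit windows.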
